A study of Homo sapiens with 4 samples.

Results

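The genes described are 10 imprinted protein-coding genes: MEST, PEG10, DLK1, PEG3, PLAGL1, NNAT, SNRPN, CDKN1C, PHLDA2 and GRB10. They were taken as every probe set whose platform annotation names 1 of them and no other gene, which gave 24 probe sets of 10 genes among 19775 genes measured. An imprinted gene is read mainly from the copy inherited from 1 parent, under control that traces to DNA methylation set in the egg or sperm. In many tumours imprinted genes lose this control and are silenced or over-read, and several of them set fetal growth and hormone cell function. MEST, PEG10, DLK1, PEG3, PLAGL1, NNAT and SNRPN are known as genes read from the father's copy, CDKN1C and PHLDA2 as genes read from the mother's copy, and GRB10 as a gene whose parental copy depends on tissue.

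RNA was measured on 4 one-colour Affymetrix 3' arrays, 1 array for each of 4 groups. The groups were QGP1, a human pancreatic neuroendocrine tumour line, given a negative control siRNA; QGP1 given siRNA against DAXX; NCI-H727, a human bronchial neuroendocrine tumour line, given the control siRNA; and NCI-H727 given siRNA against DAXX. DAXX is a chaperone that places histone H3.3 into silent chromatin together with ATRX. All 4 groups were electroporated with siRNA at a final 50 nM. For the knockdown 2 DAXX siRNAs are named, without a statement whether they were pooled, and the time between siRNA and harvest is not given in the sources used here. The labels mention no repeated culture, and a cell line is 1 tumour, so a difference between the lines is a difference between these cultures. The arrays count all RNA of a gene and cannot tell the parental copies apart. They read bulk RNA, in which fewer cells reading a gene and less RNA per cell cannot be told apart.

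Values are log2 units after the authors' normalization (RMA), so a difference of 1 is 2-fold. A value under 4.85, the 40th percentile of all probe-set means, is called dim below, and a probe set is never compared in level with another. Array medians lay between 5.31 and 5.36. Between control and knockdown arrays the correlation was 0.995 for QGP1 and 0.992 for NCI-H727, against 0.924 between the control arrays of the lines. DAXX itself was measured at 8.52 in the QGP1 control and 6.56 after knockdown, 3.90-fold lower, and at 7.35 and 6.14 in NCI-H727, 2.31-fold lower. All 8 neuroendocrine markers and all 4 epithelial markers were above the dim level on every array. Of 7 lung and islet markers measured, 3 went against the line names, 2 went with them and 2 were not called. NKX2-1, a lung factor, was 8.77 and 8.38 on the arrays labelled QGP1 and 3.35 and 3.23 on those labelled NCI-H727, and GRP was 12.80 and 11.76 against 5.37 and 4.12. CALCA, the third lung marker measured, lay between 13.46 and 13.74 on all arrays. Of the islet markers, NKX2-2 was higher on the NCI-H727 arrays, at 9.17 and 9.25 against 4.80 and 5.93, and PDX1 lay between 5.23 and 5.54 everywhere. ISL1, at 9.61 and 9.46 against 8.82 and 8.94 (limma adjusted p = 0.0322), and PAX6, at 6.64 and 6.77 against 5.12 and 5.67 (limma adjusted p = 0.00651), were higher on the QGP1 arrays. The names rest on the sample titles, and every direction between the lines below depends on them. QGP1 stands in the source label of the NCI-H727 samples too, and ALDH high QGP1 in all 4 descriptions; whether cells were selected for ALDH is not given in the sources used here. Among markers of other cells, PTPRC of leukocytes, CDH5 of endothelium, and COL1A2, COL3A1 and LUM of fibroblasts were dim on every array. The fibroblast list had 2 of 5 markers above the dim level in each line, and the endothelial and leukocyte lists had 2 of 4 in QGP1 and 3 of 4 in NCI-H727. LYZ was 6.85 and 7.04 in QGP1 and 8.80 and 8.90 in NCI-H727. KDR was 4.45 and 4.94 against 6.98 and 7.17. Both were higher in NCI-H727, as MEST and PEG10 were. CDH5, though dim, was also called higher there, and VWF, PTPRC, CD3E and CD14 were not called. PECAM1 was lower in NCI-H727, at 5.43 and 5.64 against 5.74 and 6.80, and not called (limma adjusted p = 0.0929). The part of other cells in the MEST and PEG10 results was not tested.

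Windows of 300 bases around annotated transcript starts, 250 before to 50 after, were found in the RefSeq table (GRCh38.p14) for MEST, GRB10, PLAGL1 and SNRPN, with 19 windows in all. PEG10, DLK1, PEG3, NNAT, CDKN1C and PHLDA2 are named only. The windows are shown because many imprinted genes are marked at CpG-rich starts that carry the hexamer TGCCGC, which the zinc finger protein ZFP57 binds when methylated. TGCCGC was searched on both strands and is printed in capitals, as TGCCGC or its reverse complement GCGGCA, and overlapping matches are each counted. Each line reads 5′ to 3′ on the gene's strand. The windows of MEST shown are those with the fewest and the most CpG, and for GRB10 and SNRPN the one with the most is shown.
MEST upstream start (chr7:130485925-130486224, plus strand): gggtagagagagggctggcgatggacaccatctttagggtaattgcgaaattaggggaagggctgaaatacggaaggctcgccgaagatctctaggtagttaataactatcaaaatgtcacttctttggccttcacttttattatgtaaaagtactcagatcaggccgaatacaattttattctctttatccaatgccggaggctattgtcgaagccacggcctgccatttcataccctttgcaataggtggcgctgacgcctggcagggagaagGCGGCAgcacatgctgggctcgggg
MEST downstream start (chr7:130491835-130492134, plus strand): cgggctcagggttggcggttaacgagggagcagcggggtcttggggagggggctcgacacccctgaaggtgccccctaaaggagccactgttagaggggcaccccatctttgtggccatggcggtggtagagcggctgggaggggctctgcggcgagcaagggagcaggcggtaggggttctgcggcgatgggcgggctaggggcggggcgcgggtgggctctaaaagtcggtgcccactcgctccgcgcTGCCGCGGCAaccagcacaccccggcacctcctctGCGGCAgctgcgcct
GRB10 (chr7:50792825-50793124, minus strand): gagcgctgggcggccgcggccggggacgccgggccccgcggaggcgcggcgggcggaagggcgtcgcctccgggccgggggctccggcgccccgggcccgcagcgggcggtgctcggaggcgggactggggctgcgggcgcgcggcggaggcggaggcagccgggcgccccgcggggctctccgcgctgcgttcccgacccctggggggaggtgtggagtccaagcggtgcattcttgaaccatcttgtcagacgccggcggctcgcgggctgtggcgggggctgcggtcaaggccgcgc
SNRPN (chr15:24954737-24955036, plus strand): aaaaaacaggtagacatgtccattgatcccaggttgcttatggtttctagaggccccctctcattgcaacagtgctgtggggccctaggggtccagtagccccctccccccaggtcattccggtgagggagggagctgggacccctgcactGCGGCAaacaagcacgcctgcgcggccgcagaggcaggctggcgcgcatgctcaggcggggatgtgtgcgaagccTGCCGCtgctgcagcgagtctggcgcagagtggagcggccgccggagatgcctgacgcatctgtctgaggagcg

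The MEST window at its downstream start held 25 CpG and 3 TGCCGC matches, of which 2 overlap on opposite strands, and the upstream window held 13 CpG and 1 match. The GRB10 window shown held 49 CpG, more than 98.4% of all 35116 RefSeq windows, and 0 matches. Another GRB10 window held 44 CpG and 1 match, and a PLAGL1 window held 39 CpG and 2 matches. Windows were picked by CpG count, which does not tell which start is imprinted. The SNRPN window held 18 CpG and 2 matches. TGCCGC was found in 8 of the 19 windows of these 4 genes and in 16.7% of all windows, where the median was 14 CpG. Of those 8, 4 are MEST windows in 2 overlapping pairs that share matches, so the windows are not independent and the shares are not compared. AAGATGGC, part of the site of the factor YY1, was found in 1 of the 19, a SNRPN window, and in 2.89% of all windows. A match is a string of letters in the reference and was not measured as a bound or methylated site here. A 3' array does not tell which of these starts a transcript came from.

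MEST, and PEG10 at its brighter probe set, were near the bottom of the scale on both QGP1 arrays and bright on both NCI-H727 arrays. DAXX knockdown left each gene where its line had it. MEST, on chromosome 7, encodes a hydrolase-fold protein of mesoderm and fat tissue. Its single probe set was 3.14 in the QGP1 control, 3.25 in QGP1 after knockdown, 11.91 in the NCI-H727 control and 12.33 in NCI-H727 after knockdown. Both NCI-H727 values are high, both QGP1 values are dim, and the lines do not overlap. The difference between the lines was 8.92 log2 units (SE 0.15, 95% interval 8.54 to 9.31), with an adjusted p of 0.000223 by limma fitted on all 54613 probe sets with treatment as a term. Because the QGP1 arrays have only a bound, MEST was at least 154-fold higher in NCI-H727, its mean there set against the dim level. In 19775 genes 2 had a larger difference between the lines. With any 1 array left out the difference was 8.71 to 9.13.

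PEG10, also on chromosome 7, encodes a protein derived from a retrotransposon that the placenta needs. Its brighter probe set, 212094_at, was 2.98 and 3.23 in QGP1 control and knockdown, and 10.58 and 10.18 in NCI-H727. The lines do not overlap, and QGP1 is dim on both arrays. The difference was 7.28 (SE 0.20, 95% interval 6.75 to 7.80; limma adjusted p = 0.000238), at least 46.1-fold against the dim level, and 25 genes differed more. The other probe set, 212092_at, had the same direction with a smaller difference. It was 5.15 and 4.97 in QGP1, above the dim level, and 7.87 and 7.83 in NCI-H727. The difference there was 2.79 (SE 0.13, limma adjusted p = 0.000624), or 6.93-fold. The size for PEG10 therefore depends on the probe set, and the reason was not tested.

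**Figure D1:**
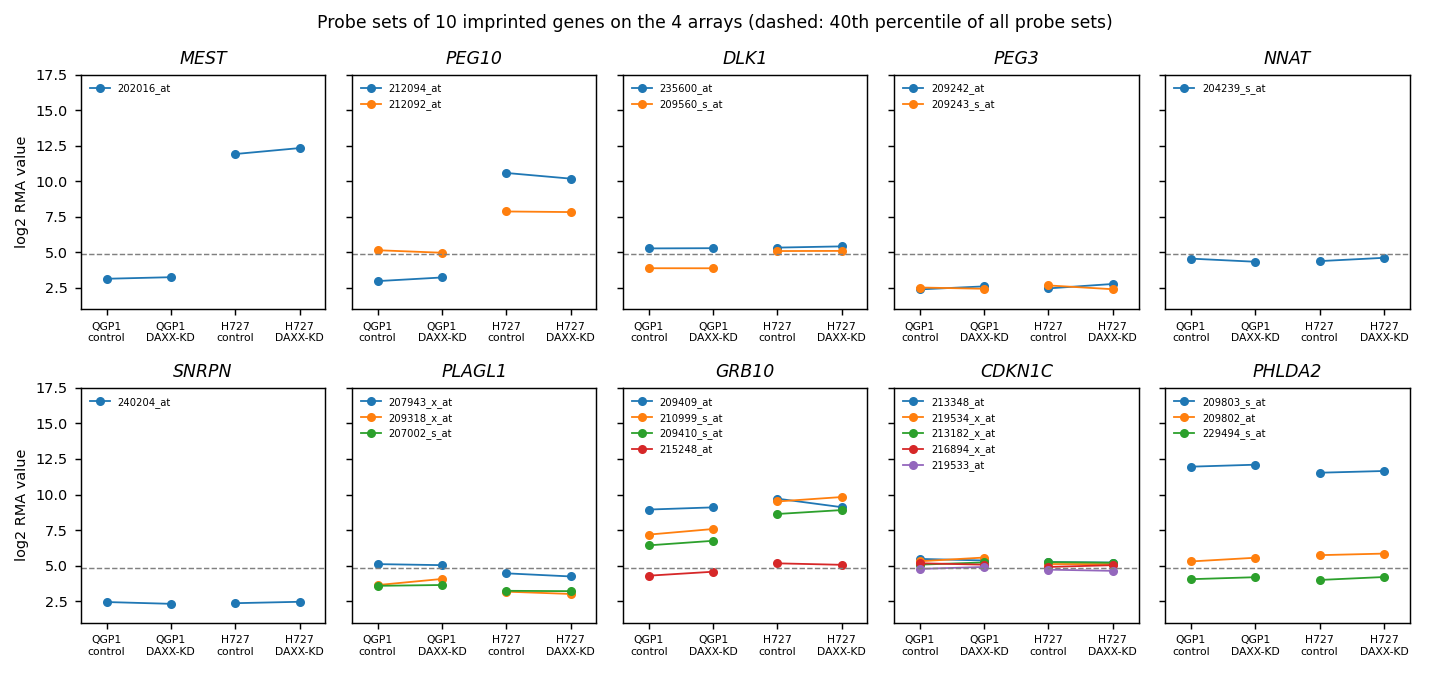
Log2 RMA value (vertical axis) of every probe set of the 10 genes on the 4 arrays (horizontal axis), with 1 panel per gene, 1 colour per probe set and a line joining control to knockdown within a cell line; the dashed line is the dim level of 4.85. MEST and PEG10 step up from QGP1 to NCI-H727, PHLDA2 has a probe set above 11 on every array, and PEG3, NNAT and SNRPN stay under the dashed line.

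Of the other genes read from the father's copy, PEG3, SNRPN and NNAT were dim on all 4 arrays at the probe sets that name them alone, DLK1 lay near the dim level, and PLAGL1 was slightly higher in QGP1. PEG3 is a zinc finger factor that acts in placenta and brain. Its probe set 209242_at was 2.40, 2.61, 2.47 and 2.78 on the QGP1 control, QGP1 knockdown, NCI-H727 control and NCI-H727 knockdown arrays. These values overlap between the lines, with a difference of 0.12 (SE 0.13; limma adjusted p = 0.568). The second PEG3 probe set lay between 2.41 and 2.67. SNRPN encodes SmN, a spliceosome protein of neurons. Its probe set was 2.44, 2.32, 2.36 and 2.46 in the same order, a difference of 0.03 (SE 0.14; limma adjusted p = 0.904). A further 12 probe sets name a member together with other genes and were not assigned. Of these, 3 name SNURF and SNRPN together and lay between 3.34 and 5.0, and 8 name the small nucleolar RNA genes downstream, between 2.26 and 5.66. The last names ZIM2 and PEG3 together and was 5.5, 5.46, 5.52 and 5.81, above the dim level on all arrays, and which of these genes it reads is not known. NNAT encodes neuronatin, a membrane proteolipid known in brain and in insulin-secreting cells. It was 4.56, 4.34, 4.38 and 4.62, a difference of 0.05 (SE 0.16; limma adjusted p = 0.864).

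DLK1 encodes a transmembrane protein related to Notch ligands that marks hormone-secreting progenitors. Its brighter probe set, 235600_at, was 5.28, 5.29, 5.33 and 5.42, a difference of 0.09 (SE 0.13; limma adjusted p = 0.663). Its other probe set, 209560_s_at, was 3.88 on both QGP1 arrays and 5.09 and 5.10 on the NCI-H727 arrays, a difference of 1.21 (SE 0.13; limma adjusted p = 0.00439). PLAGL1 is a zinc finger factor that restrains growth. Its brightest probe set, 207943_x_at, was 5.11 and 5.03 in QGP1 and 4.46 and 4.24 in NCI-H727, where both values are dim. The lines do not overlap at this probe set. It was lower in NCI-H727 by a log2 difference of -0.72 (SE 0.13, 95% interval -1.07 to -0.37; limma adjusted p = 0.0198). In fits with 1 array left out, which have no treatment term, the call was lost without the QGP1 control (-0.68, limma adjusted p = 0.108), the QGP1 knockdown (-0.76, 0.0908) or the NCI-H727 knockdown array (-0.61, 0.0607). It was kept without the NCI-H727 control (-0.83, 0.0313), so the difference stayed of like size while fewer arrays entered the fit. A second PLAGL1 probe set, 209318_x_at, dim on all arrays, was also called, at -0.76 (SE 0.19; limma adjusted p = 0.0466), and the third was not, at -0.39 (limma adjusted p = 0.0947). PLAGL1 had no probe set left when those with a mean under the dim level, or the x_at and s_at ones, were left out.

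The genes read from the mother's copy, CDKN1C and PHLDA2, lie in the same cluster on chromosome 11. CDKN1C encodes p57, an inhibitor of cyclin-dependent kinases. Its 5 probe sets lay between 4.63 and 5.57 on all arrays, and 0 of 5 were called for the line difference. The brightest, 213348_at, was 5.47, 5.36, 5.25 and 5.22 on the 4 arrays, a difference of -0.18 (SE 0.13; limma adjusted p = 0.375). PHLDA2 encodes a small pleckstrin-homology protein that restrains placental growth. Its brightest probe set, 209803_s_at, was 11.96 and 12.10 in QGP1 and 11.53 and 11.65 in NCI-H727, bright on every array. The line difference was -0.43 (SE 0.13, 95% interval -0.77 to -0.10; limma adjusted p = 0.0719, and 0.00829 when the prior follows intensity). A second probe set, 209802_at, had the opposite sign at 0.37 (limma adjusted p = 0.118), so no direction between the lines is given for PHLDA2. Its neighbour SLC67A1, a membrane transporter gene also named SLC22A18, was 8.96 and 9.33 in QGP1 and 10.32 and 10.36 in NCI-H727, a difference of 1.20 (limma adjusted p = 0.0068).

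GRB10 encodes an adaptor protein that inhibits insulin and insulin-like growth factor receptors. Its 4 probe sets gave different answers for the line difference. The brightest, 209409_at, was 8.94 and 9.10 in QGP1 and 9.71 and 9.11 in NCI-H727. NCI-H727 was higher on the control array and almost equal on the knockdown array, a difference of 0.39 (SE 0.22, 95% interval -0.19 to 0.97; limma adjusted p = 0.274). The other 3 probe sets were all called higher in NCI-H727. 210999_s_at was 7.18 and 7.58 against 9.51 and 9.82, or 4.89-fold (difference 2.29, SE 0.13; limma adjusted p = 0.000948). 209410_s_at was 6.43 and 6.75 against 8.63 and 8.91, or 4.54-fold (difference 2.18, SE 0.13; limma adjusted p = 0.00105). 215248_at was 4.29 and 4.57 against 5.16 and 5.06, a difference of 0.68 (SE 0.15; limma adjusted p = 0.0378). Different probe sets of a gene can read different transcript ends, which was not tested.

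Counted at the brightest probe set, 3 of 10 members were called between the lines at an adjusted p under 0.05, against a background of 32.2% of all genes. MEST and PEG10 are the 2 higher in NCI-H727, where the background for that direction is 15.5%, and PLAGL1 is the 1 higher in QGP1. The share called is near the background, so the count says nothing particular about imprinted genes. What stands out for MEST and PEG10 is the size of the difference. Over all 24 probe sets, 7 were called higher in NCI-H727 and 2 higher in QGP1. Probe sets of 1 gene are not independent, so these counts are not compared with the background by gene. The median difference over the members was 0.07, against 0.06 over all genes. At the brightest probe set, 4 of the 10 members were above the dim level on all 4 arrays, against 13342 of 19775 genes. On all arrays 3 members were dim, against 4328 of 19775 genes.

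**Figure D2:**
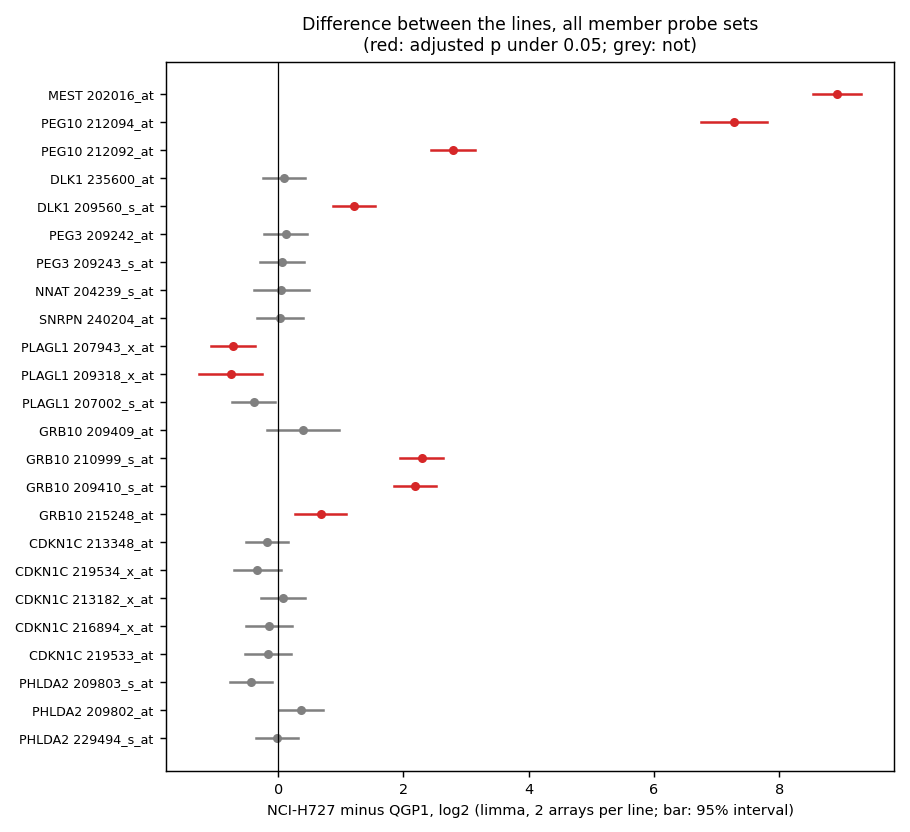
Difference between the lines, NCI-H727 minus QGP1, in log2 units (horizontal axis) for the 24 member probe sets (vertical axis), with the 95% interval of the limma fit over 2 arrays per line; red marks an adjusted p under 0.05. The MEST probe set at 8.92 and a PEG10 probe set at 7.28 lie far right of the rest, and the 9 red probe sets belong to 5 genes.

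The genes beside MEST, PEG10 and GRB10 on chromosome 7 were compared over the 4 nearest measured genes on each side, in RefSeq order. These were chosen after the members' values were seen. Around MEST 0 of 8 neighbours were called for the line difference, against 32.2% of all genes, and they lay between -0.33 and 0.33. Of these, CPA1, COPG2IT1, TSGA13 and KLF14 were dim on all arrays, where a difference could hardly register, so the share is not compared. COPG2, the next gene to MEST, which encodes a coat protein subunit, was 8.75 and 8.81 in QGP1 and 8.58 and 8.36 in NCI-H727, a difference of -0.31 (limma adjusted p = 0.192). Around PEG10 the picture was mixed. SGCE, a sarcoglycan gene that shares its start region with PEG10 and is also read from the father's copy, was 6.74 and 7.33 in QGP1 and 9.76 and 9.51 in NCI-H727. It was 6.06-fold higher there, a difference of 2.60 (SE 0.23; limma adjusted p = 0.00295), the same direction as PEG10. PPP1R9A on the other side, a regulatory partner of protein phosphatase, went the opposite way at -2.10 (SE 0.13; limma adjusted p = 0.0011), from 10.54 and 10.19 in QGP1 to 8.46 and 8.07 in NCI-H727. PON3, a paraoxonase, differed by -4.92, and was 30.3-fold higher in QGP1. CASD1 at -0.98 and PON2 at -1.02 were also higher in QGP1. BET1 was not called, nor were COL1A2 and PON1, which were dim on all arrays. Around GRB10, VSTM2A at 3.99 and COBL at 1.13 were higher in NCI-H727 and FIGNL1 at -0.65 was higher in QGP1.

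**Figure D3:**
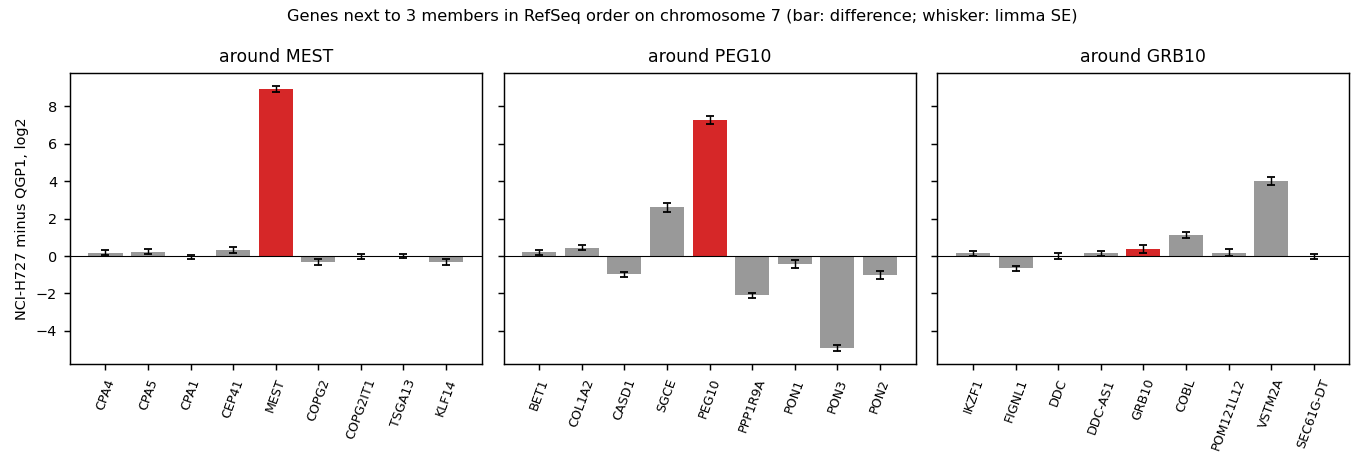
Line difference in log2 units (vertical axis, NCI-H727 minus QGP1) of MEST, PEG10 and GRB10 and the 4 nearest measured genes on each side in RefSeq order on chromosome 7 (horizontal axis); bars are the fitted difference, whiskers the limma SE. The MEST bar at 8.92 lies far above those of its neighbours, SGCE lies above 0 with PEG10, and PPP1R9A and PON3 lie below 0.

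For the reciprocal gene of DLK1, the noncoding RNA MEG3, which is known to be read from the mother's copy, 5 of 10 probe sets were called higher in QGP1 and 0 higher in NCI-H727. The probe set with the largest difference, 212732_at, was 8.0 and 7.57 in QGP1 and 2.92 and 2.86 in NCI-H727, at least 7.62-fold higher in QGP1 against the dim level (difference -4.89; limma adjusted p = 0.000281). Its brightest probe set, 210794_s_at, differed by -0.73 (limma adjusted p = 0.0182). With 1 array left out this was -0.76 to -0.69, and it was not called in every such fit. BLCAP, the gene that holds NNAT in its intron, was between 8.77 and 9.15 on all arrays, a difference of 0.24 (limma adjusted p = 0.291), while NNAT was dim. KCNQ1OT1, the noncoding RNA of the CDKN1C cluster, differed by 0.45 at its brightest probe set (limma adjusted p = 0.0647). That probe set was called in some other settings, such as after a second quantile normalization (0.50, limma adjusted p = 0.0367). Its probe set 237249_at was called higher in NCI-H727, at 0.59 (limma adjusted p = 0.0330), and the rest were not called.

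After DAXX knockdown, 0 of the 10 members moved 2-fold in either line. The background was 0.445% of genes in QGP1 and 1.19% in NCI-H727, and with 10 genes a count of 0 is near it. At 1.5-fold, 0 members passed in QGP1, against 3% of all genes, and 1 in NCI-H727, against 5.51%. That 1 was GRB10 at 209409_at, which went from 9.71 to 9.11, 1.51-fold lower, while 210999_s_at and 209410_s_at went the other way, by 0.31 and 0.27. With 1 array per group there is no replicate for these differences, and no p is given. Over all 24 probe sets the differences ran from -0.22 to 0.43 in QGP1 and from -0.60 to 0.42 in NCI-H727. The central 95% of all genes ran from -0.47 to 0.51 and from -0.70 to 0.52, and 0 of 10 members fell outside it in either line. For comparison, the knockdown difference varied among probe sets for a single gene by an SD of 0.221 (QGP1) and 0.276 (NCI-H727). The median size of the difference was 0.13 over the members and 0.13 over all genes in QGP1, and 0.23 against 0.17 in NCI-H727. The signed medians were 0.06 over the members and 0.0047 over all genes in QGP1, and 0.09 and 0.03 in NCI-H727.

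Each gene's own pair of differences shows how little its measured level moved after knockdown, though a fall of a dim gene could hardly register. MEST was higher by 0.11 in QGP1, where it stayed dim, and by 0.42 in NCI-H727, or 1.34-fold. PEG10 at its brighter probe set was higher by 0.26 in QGP1 and differed by -0.40 in NCI-H727. SGCE, its neighbour, had the same signs, at 0.58 and -0.24. PHLDA2 was higher after knockdown at all 3 probe sets in both lines, by 0.14 and 0.12 at the brightest. PEG3 was higher by 0.21 and 0.31 at 1 probe set and differed by -0.09 and -0.27 at the other, so no direction is given. NNAT differed by -0.22 and 0.23, SNRPN by -0.13 and 0.10, CDKN1C by -0.11 and -0.04 at its brightest probe set, DLK1 by 0.02 and 0.09, and PLAGL1 by -0.07 and -0.22. In all, 8 probe sets were higher in both lines, 4 were lower in both and 12 had opposite signs.

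Taking the lines as repeats of the knockdown, limma with cell line as a block called 0 of 10 members at an adjusted p under 0.05, where the background is 0% of 19775 genes. At an unadjusted p under 0.05, 0 members passed at their brightest probe set, against a background of 5.08% of genes. Among all member probe sets 1 passed, GRB10 210999_s_at, at 0.35 (95% interval 0.01 to 0.69; limma adjusted p = 0.979). DAXX, the targeted gene, also missed the adjusted threshold in this fit, whose smallest adjusted p over all probe sets was 0.979. The fit has 1 residual degree of freedom, so the intervals are the useful part. Over the 10 members they ran from -0.80 to 0.65 log2 units: MEST 0.26 (-0.12 to 0.65), PEG10 -0.07 (-0.60 to 0.45), GRB10 -0.22 (-0.80 to 0.35), PHLDA2 0.13 (-0.20 to 0.47) and PEG3 0.26 (-0.08 to 0.60). A change of 2-fold shared by both lines lies outside all 10 intervals. PEG3, SNRPN and NNAT were dim on all arrays, where a fall could hardly register, so their intervals exclude no fall. The same holds in QGP1 for MEST and for PEG10 at its brighter probe set, and their joint value averages a dim line with a bright one. PLAGL1 was dim in NCI-H727 (4.46 and 4.24), where a fall could hardly register either. DLK1 (5.28 to 5.42) and CDKN1C (5.22 to 5.47) lay near the dim level at their brightest probe sets. For these genes too a 2-fold fall is not excluded. Whether the knockdown differed between the lines could not be tested with these arrays.

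**Figure D4:**
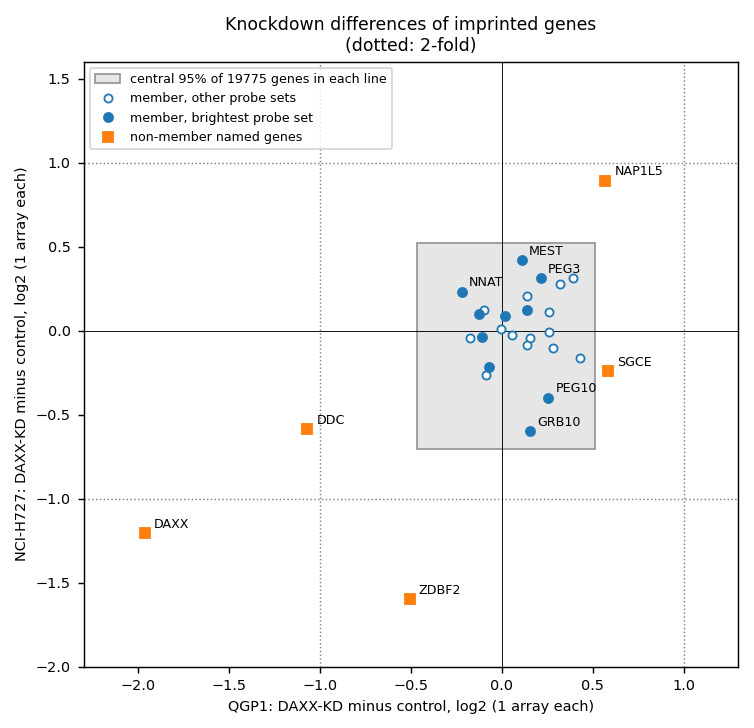
DAXX-KD minus control in QGP1 (horizontal axis) and NCI-H727 (vertical axis), in log2 units with 1 array each; filled blue circles are the members' brightest probe sets, open circles their other probe sets, orange squares named genes outside the 10, dotted lines 2-fold, and the grey box the central 95% of 19775 genes in each line. The members crowd inside the box, while DAXX lies at -1.96 and -1.21.

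Other imprinted genes and the genes that keep imprints were counted from lists. Of 46 other imprinted protein-coding genes 40 were measured, and 18 were called between the lines, 9 in each direction, against the background of 32.2%. Their median difference was 0.10. TFPI2, a protease inhibitor on chromosome 7, was 3.19 and 3.54 in QGP1 and 8.52 and 8.80 in NCI-H727, at least 14-fold higher (difference 5.29; limma adjusted p = 0.000223). NAP1L5, a relative of nucleosome assembly proteins, went the other way, from 8.67 and 9.23 to 5.46 and 6.35 (difference -3.04; limma adjusted p = 0.000681). ZNF331 at 2.36 was higher in NCI-H727 and INPP5F at -1.98 in QGP1, though the other INPP5F probe sets, at -0.18 and -0.65, were not called. NAP1L5 was also higher after knockdown, by 0.57 in QGP1 and 0.89 in NCI-H727, with 0.23 and 0.69 at its second probe set. After knockdown 1 of the 40 passed 2-fold in each line, against 0.445% of all genes in QGP1 and 1.19% in NCI-H727. In QGP1 this was DDC, the decarboxylase that makes dopamine and serotonin, from 11.66 to 10.59, 2.10-fold lower, with a second probe set at -0.99. In NCI-H727 it was ZDBF2, from 6.86 to 5.26, 3.03-fold lower, with -0.51 in QGP1. The joint fit called 0 of the 40, with 4 at an unadjusted p under 0.05, against 5.08% of all genes. Of 15 imprinted noncoding genes 9 were measured, and 6 of these were dim on all arrays, where a fall could hardly register. Between the lines 2 were called, MEG3 and GNAS-AS1, and 0 passed 2-fold after knockdown. GNAS-AS1 was 4.40 and 3.72 in QGP1, both dim, and 6.56 and 6.24 in NCI-H727 (difference 2.34, limma adjusted p = 0.00136). Its knockdown differences were -0.68 in QGP1 and -0.32 in NCI-H727. The median knockdown differences of the 40 protein-coding genes were -0.03 in QGP1 and 0.0085 in NCI-H727, and those of the 9 noncoding genes -0.07 and -0.04.

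For 28 genes that set or keep imprints, such as DNA methyltransferases and their partners, 25 were measured and 11 were called between the lines. The background in either direction was 32.2% of genes. Higher in NCI-H727 were 4, against 15.5% of genes, and higher in QGP1 were 7, against 3297 of 19775 genes. Of the 25, 24 were above the dim level on all arrays, against 13342 of 19775 genes, so the shares are not compared. TET1 at -2.47 and TET2 at -1.52, enzymes that oxidise methylated cytosine, were higher in QGP1. So were DNMT3B at -1.39 and DNMT3A at -0.99, which add methyl groups, and ATRX, the partner of DAXX, at -1.62. TRIM28, the corepressor that ZFP57 recruits, was higher in NCI-H727 at 0.83. All 6 had limma adjusted p-values between 0.000771 and 0.0167. With 1 array left out, TET2 ran from -1.73 to -1.32, DNMT3B from -1.63 to -1.15 and DNMT3A from -1.13 to -0.85. ATRX ran from -1.92 to -1.32 and TRIM28 from 0.80 to 0.86. Such fits leave 1 array in a line, and the genes with a range given here were not called in every one. After knockdown DAXX, at its brighter probe set, was the 1 gene of the 25 past 2-fold in each line. The joint fit called 0, DAXX included. DNMT3B was higher by 0.48 in QGP1 and 0.45 in NCI-H727. TET1 was higher by 0.47 and 0.45 at its brighter probe set and differed by -0.15 and -0.56 at the other, so no direction is given for it.

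The genes whose values over the 4 arrays were most like those of the 3 members with the widest range were found by the root mean square distance between values centred on each gene's mean. For MEST these were PRSS2 at a distance of 0.166, EREG at 0.349 and VIP at 0.620. For PEG10 they were IGFBP3 at 0.0929, TUSC3 at 0.146 and RASSF10 at 0.156. For PLAGL1, whose range is narrow, they were BIRC5 at 0.0130, DCAKD at 0.0181 and JADE1 at 0.0183. With 4 arrays in 2 lines this likeness is mostly a like difference between the lines.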

How the data were processed

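RNA of 4 samples was measured on 4 Affymetrix arrays. The deposited table holds log2 values that the authors made by RMA, which subtracts background, quantile-normalizes arrays and summarises probes. Per the submitters' processing notes the software was affy 1.40.0 in R 3.0.3. RMA removes a shift shared by most genes and compresses differences of dim probe sets. Of 54613 probe sets, 41091 had 1 gene symbol, 1801 several and 11721 none; a gene is its brightest probe set. limma 3.58.1 (R 4.3.3) was fitted on all probe sets with line and treatment as terms, two-sided, with Benjamini-Hochberg adjustment at 0.05, 1 residual degree of freedom and a prior of 3.54. The fit was tested on simulated data. With 1 array per group, p-values rest on how far the knockdown differences of the 2 lines disagree, and on the prior. This spread may be technical and is not a spread between repeated cultures, and the number of arrays limits precision. The members and gene lists were chosen with earlier results of these data known. Named genes outside the members were those past 2-fold after knockdown in either line, the 6 with the largest called line difference in the other imprinted and the maintenance lists, DAXX, fixed neighbours of members, and the 3 genes most alike to 3 members. SNURF and ZIM2, neighbours by that rule, had no probe set of 1 symbol and are not analysed here. Alternatives covered the filter, the probe set rule, normalization, centring, prior, covariate and single arrays.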

Additional observations from a re-analysis of the deposited data

How the results depend on the processing

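The count of members called between the lines was 3, and 2 to 3 with any 1 array left out. It was 5 when a gene was the mean of its probe sets, which adds GRB10 and DLK1. The other settings gave 2 to 4. The counts of members past 2-fold after knockdown and called in the joint fit were 0 under every setting run. MEST and PEG10 were called under every setting run. Signs turned for these differences, none of which was called as reported. For the line, these were DDC 0.066 with the mean of probe sets and PHLDA2 0.37 without x_at and s_at probe sets. With 1 array left out, where the lone array of a line is assumed to vary like the other line, DAXX ran from -1.77 to 0.19, DDC from -0.54 to 0.53, NNAT from -0.0646 to 0.17, SNRPN from -0.0322 to 0.0941 and PEG3 from -0.0358 to 0.27. For the joint knockdown with the mean of probe sets, they were CDKN1C 0.0295, PLAGL1 0.0012, GRB10 0.13, KCNQ1OT1 -0.0258 and ZNF331 -0.0128, and NNAT was -0.006 after a second quantile normalization. Fits with 1 array left out have no treatment term, so a knockdown difference, such as that of DAXX or DDC, enters their line difference. The cause of the sign turns was otherwise not tested. Leave-one-out of the joint knockdown was not run as a test, since 3 arrays leave 0 residual degrees of freedom. The joint fit pairs control with knockdown within each line, and without the cell line block its count was also 0. Arrays near background limit what can be said of PEG3, SNRPN, NNAT, DLK1 and CDKN1C. The same limit holds in QGP1 for MEST and the brighter PEG10 probe set, and in NCI-H727 for PLAGL1.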
